A study of Drosophila melanogaster with 24 samples.

Results

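Occupancy of chromatin by RNA polymerase II (Pol II) was compared with that of Sgf11 in early Drosophila melanogaster embryos by chromatin immunoprecipitation and sequencing (ChIP-seq). All called peaks of both factors were used, which gave 22009 Pol II peaks from 2 libraries and 17632 Sgf11 peaks from 3 libraries. These 39641 peaks were part of 83085 peaks in the 14 ChIP libraries of the series, and their 5 libraries were part of 24 samples, of which 10 were total chromatin. Embryos were aged 1 to 3 h, were staged by eye as stage 4 to 6, and were fixed in 1.8% formaldehyde. Pol II was precipitated with 3 µg of the mouse antibody 4H8, whose labelled epitope is the repeat of the C-terminal domain phosphorylated at serine 5. Sgf11 was precipitated with 10 µg of a rabbit antibody raised against the full-length protein. No treatment, mutation or strain was named for any group, and whole embryos were used, so more cells with a bound factor and more binding per cell cannot be told apart. The other libraries, used here for comparison, mapped Ada2b (4 libraries), Spt3 (3 libraries) and Non-stop (2 libraries).

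Sgf11 is a subunit of the SAGA coactivator, a modular complex that modifies nucleosomes at genes transcribed by Pol II. Together with the ubiquitin protease Non-stop it belongs to the deubiquitinase module, which removes ubiquitin from histone H2B. Ada2b belongs to the acetyltransferase module of SAGA and Spt3 to the module that contacts the TATA-binding protein. The C-terminal domain of Pol II is phosphorylated at serine 5 around initiation and early elongation, and this mark is usually most abundant near promoters. Whether 4H8 also bound Pol II without the mark was not tested here. At this age the embryo takes over transcription from the mother, and many Pol II molecules pause shortly after initiation.

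The Pol II libraries, named 1188_2 and 1632_1 in the labels, held 11440 and 10569 peaks, against 4972, 6787 and 5873 peaks in the Sgf11 libraries 1377_1, 1377_2 and 1924_2. Pol II peaks covered 14.3 ± 4.47 Mb per library (SD, n = 2) and Sgf11 peaks 2.89 ± 0.88 Mb (SD, n = 3). The main difference was in long peaks. Peaks of at least 1 kb made up 28.6 ± 7.14% of a Pol II list (SD, n = 2) and 4.92 ± 3.90% of an Sgf11 list (SD, n = 3), and the widest peak measured 51927 and 42604 bp for Pol II, against 6060, 6381 and 4133 bp for Sgf11. Median widths lay closer together, at 583 and 489 bp for Pol II and 466, 500 and 330 bp for Sgf11. Sgf11 peaks were the more enriched, with median fold enrichment over background of 2.59 ± 0.51 for Pol II (SD, n = 2) and 4.74 ± 0.47 for Sgf11 (SD, n = 3). On the log2 scale, Pol II minus Sgf11 was 0.92 for peak number, 0.33 for median width and 2.31 for covered bases, with exact two-sided permutation p-values of 0.1, 0.5 and 0.1, and 0.1 is the smallest that 2 libraries against 3 can give. The width difference was 0.85 among the upper 50% of peaks by score and 1.20 with equal numbers of peaks, both with an exact permutation p of 0.1. It was 0.15 without Sgf11 1924_2 and 0.20 without Pol II 1188_2. After Benjamini-Hochberg adjustment over all 17 tests of this comparison the p-values were 0.155, 0.531 and 0.155. The first part of a library number names a set, and no set held both factors, so the factor and the set cannot be told apart. The labels do not say whether libraries came from separate embryo collections, so p-values measure the spread between libraries, which may be technical. Read depth is unknown, because the lists hold no counts.

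With all called peaks, most Sgf11 peaks overlapped Pol II, while most Pol II peaks lacked Sgf11. The second part depended on the longer Pol II lists. With the 4972 strongest peaks of each list, 59.0% of Pol II peaks overlapped Sgf11 and 66.2% of Sgf11 peaks overlapped Pol II. Of 5755 Pol II regions present in both libraries, 3107 overlapped a reproducible Sgf11 region. An overlap of 1 bp was counted as shared. Over the 6 library pairs, 30.4 to 39.7% of Pol II peaks overlapped an Sgf11 peak, a mean of 34.2 ± 1.11% (SD over the 2 Pol II libraries). In the reverse direction, 62.9 to 81.3% of Sgf11 peaks overlapped a Pol II peak, a mean of 72.6 ± 2.45% (SD over the 3 Sgf11 libraries). The Pol II library mattered more than the Sgf11 library for this share. With Pol II 1188_2 it was 80.8% for Sgf11 1377_1, 76.8% for 1377_2 and 81.3% for 1924_2, and with Pol II 1632_1 it was 67.7%, 62.9% and 66.4% in that order. In bases, 12.5 ± 0.73% of what Pol II peaks covered lay in Sgf11 peaks (n = 2), against 62.0 ± 3.29% of what Sgf11 peaks covered that lay in Pol II peaks (n = 3). These overlaps can be read beside those within a factor. Of the peaks of Pol II 1188_2, 53.7% were met by a peak of 1632_1, and 94.6% in the reverse direction, while 70.3 to 99.0% of the peaks of an Sgf11 library were met by another Sgf11 library.

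**Figure D1:**
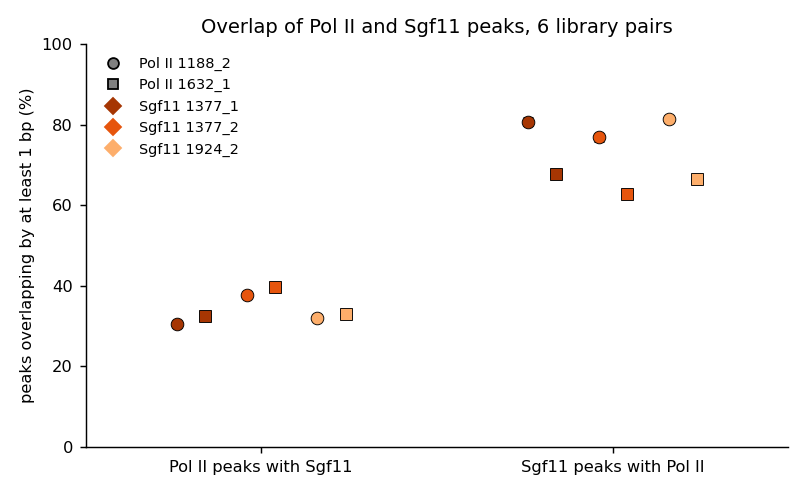
Share of peaks (%) that overlapped the other factor by at least 1 bp in the 6 library pairs, on the left for Pol II peaks and on the right for Sgf11 peaks. Circles are pairs with Pol II 1188_2, squares pairs with Pol II 1632_1, colours the Sgf11 library, and 95% Wilson intervals are mostly smaller than the symbols. Pol II peaks sit between 30.4 and 39.7% and Sgf11 peaks between 62.9 and 81.3%.

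For Pol II peaks, overlap tended to be with all Sgf11 libraries or with none. In Pol II 1188_2, 6897 peaks met no Sgf11 library, 681 met 1, 788 met 2 and 3074 met all 3. In Pol II 1632_1 these numbers were 6190, 618, 796 and 2965. Peaks that met 2 or more Sgf11 libraries were thus 33.8% and 35.6% of the Pol II libraries, and 34.6% of both together. For Sgf11, peaks that met both Pol II libraries numbered 3353 of 4972, 4248 of 6787 and 3883 of 5873, or 65.1% of the 3 lists together. Sgf11 peaks that met 1 Pol II library numbered 676, 982 and 910, and those that met neither 943, 1557 and 1080. The share that met both Pol II libraries was 69.3% over the 9 libraries of Ada2b, Spt3 and Non-stop. Within Pol II 1188_2, 50.6% of the 6147 peaks shared with 1632_1 had Sgf11 in 2 or more libraries, against 14.2% of the 5293 peaks called in 1188_2 alone. Shared peaks were also wider, with a median of 1258 bp against 338 bp for peaks called alone, and stronger, with a median fold enrichment of 6.79 against 2.17.

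For Pol II, the share of peaks with Sgf11 followed peak strength. Peaks of each Pol II library were ranked by score and put into 10 classes of equal size, and a peak was counted as having Sgf11 when 2 or more Sgf11 libraries had a peak there. In 1188_2 the share with Sgf11 was 1.57% in the lowest score class, 11.5% in the fifth, 49.7% in the seventh and 84.1% in the highest. In 1632_1 it was 2.74%, 20.0%, 49.7% and 83.5% in the same classes. The curves of both libraries lay close to each other although their peaks differed in fold enrichment. Width, put into 5 classes instead of 10, gave a flatter curve, though fewer classes narrow the range by themselves. From the narrowest to the widest of 5 width classes the share was 6.51, 13.2, 25.5, 46.2 and 77.4% in 1188_2, and 15.9, 26.2, 37.5, 40.9 and 57.4% in 1632_1. Score and width were correlated over peaks, with Spearman coefficients of 0.688 in 1188_2 and 0.628 in 1632_1, given as a description since the peaks share a library.

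**Figure D2:**
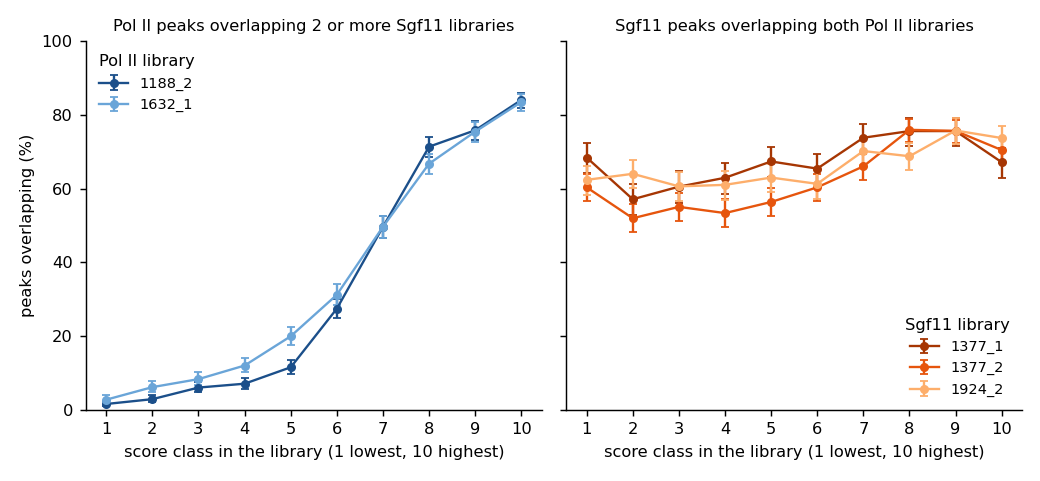
Share of peaks (%) that overlapped 2 or more Sgf11 libraries, for Pol II peaks on the left, and both Pol II libraries, for Sgf11 peaks on the right, by score class within each library (1 lowest, 10 highest). Points are libraries and bars 95% Wilson intervals. Pol II climbs from under 3% to over 83%, while every point of the Sgf11 panel lies between 52.0 and 76.0%.

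Score separated Pol II peaks within every width class. When the peaks of a width class were split at their median score, the upper 50% had Sgf11 more often than the lower 50% in all 10 classes, 5 for each Pol II library. The gap ran from 7.26 percentage points, in the narrowest class of 1188_2, to 64.9 points, in the widest class of 1632_1. In the fourth width class of 1188_2, with a median width of 1161.5 bp, 76.7% of the stronger and 15.6% of the weaker peaks had Sgf11. In the widest class of 1632_1 these shares were 89.9% and 25.0%, so a wide Pol II peak of low score mostly lacked Sgf11 in that library. In 1188_2 the widest class differed, since 62.4% of its weaker peaks still had Sgf11. Expressed as score percentiles within the library, Pol II peaks with Sgf11 had medians of 78.9 in 1188_2 and 77.5 in 1632_1, against 31.8 and 31.9 for peaks that met no Sgf11 library. The mean difference of 46.3 percentile points had the same sign in both libraries, and an exact sign-flip permutation over 2 libraries cannot give a p below 0.5, the value found here (adjusted 0.531).

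Sgf11 peaks behaved differently. Over the 10 score classes the share of Sgf11 peaks with both Pol II libraries ranged from 57.1 to 75.7% in 1377_1, from 52.0 to 76.0% in 1377_2 and from 60.6 to 75.8% in 1924_2. In 1377_1 the lowest score class, at 68.5%, stood beside 67.2% in the highest. Width mattered more than score. From the narrowest to the widest of 5 classes the share was 52.0, 59.4, 67.8, 73.8 and 84.2% in 1377_1, 43.2, 50.9, 61.2, 70.6 and 87.0% in 1377_2, and 52.7, 61.4, 61.1, 72.8 and 82.7% in 1924_2. Sgf11 peaks with both Pol II libraries had median score percentiles of 53.3, 56.1 and 52.9 in 1377_1, 1377_2 and 1924_2, against 43.6, 40.5 and 45.3 for peaks with neither. The mean difference was 10.9 percentile points, with the same sign in 3 of 3 libraries (exact sign-flip permutation p = 0.25, the smallest possible, adjusted 0.354).

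This difference changed sign once width was held. Ranked by score within 5 width classes, Sgf11 peaks with Pol II stood lower than those without, with differences of -14.3, -15.2 and -5.24 percentile points in 1377_1, 1377_2 and 1924_2 and a mean of -11.6. In every width class of 1377_1 and 1377_2, the lower 50% by score overlapped Pol II more often than the upper 50%, with differences between -6.84 and -19.5 percentage points. In 1924_2 the differences ran from -8.58 to 2.21 points and were below 0 in 3 of 5 classes. Among the narrowest Sgf11 peaks of 1377_2, for example, 37.1% of the stronger and 49.3% of the weaker peaks had both Pol II libraries. For Pol II the same ranking left the difference positive, at 31.6 points in 1188_2 and 41.3 points in 1632_1.

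**Figure D3:**
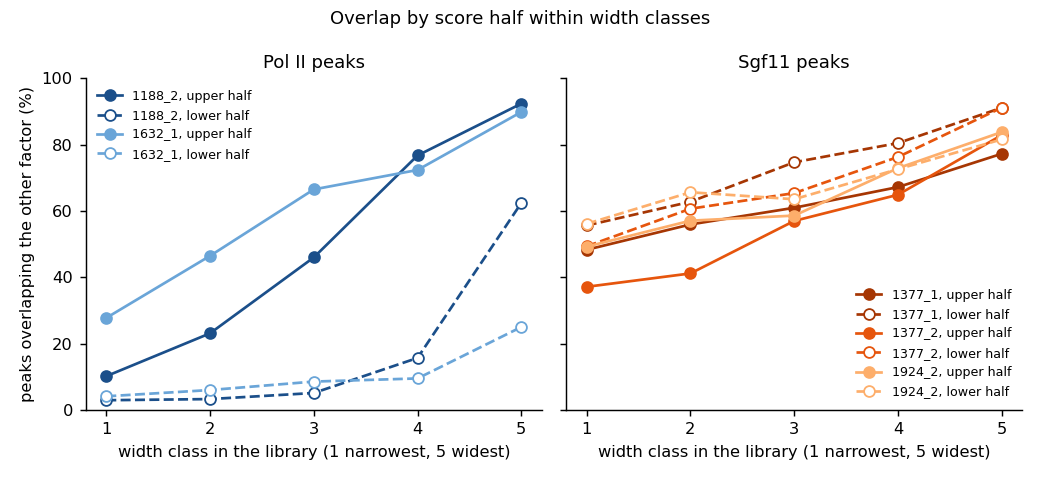
Share of peaks (%) overlapping the other factor (2 or more Sgf11 libraries for Pol II peaks, left; both Pol II libraries for Sgf11 peaks, right) by width class within each library (1 narrowest, 5 widest). Filled points and solid lines are the upper 50% of the class by score, open points and broken lines the lower 50%. Filled points lie above open ones of the same library in all 10 Pol II classes, and below them in 13 of 15 Sgf11 classes.

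Sgf11 summits near Pol II were mostly offset from the Pol II summit, a trait that the other SAGA subunits shared. A summit is the position of highest signal in a peak. The median distance of an Sgf11 summit to the nearest Pol II summit was 222 bp for 1377_1, 287 bp for 1377_2 and 189 bp for 1924_2 with Pol II 1188_2, and 302, 472 and 273 bp with Pol II 1632_1, a mean of 291 ± 78.3 bp (SD over the 3 Sgf11 libraries). In classes of 25 bp, the fullest class for Sgf11 was 125 to 150 bp in both libraries of set 1377 and 100 to 125 bp in 1924_2, all against 1188_2. Against 1632_1 it was 150 to 175 bp in set 1377 and 125 to 150 bp in 1924_2. Between the 2 Pol II libraries the fullest class was 0 to 25 bp, with 23.9 and 22.1% of summits. Only 3.28 to 7.12% of Sgf11 summits fell within 50 bp of a Pol II summit, against 32.0 and 34.7% of the summits of the other Pol II library. Conversely, 23.7 to 34.5% of Sgf11 summits lay 100 to 200 bp away, against 5.06 and 5.44% of Pol II summits. This share was 19.0 to 27.3% for Ada2b, 18.6 to 31.3% for Spt3 and 17.6 to 19.8% for Non-stop summits. For comparison, median distances between the summits of 2 Sgf11 libraries were 19 to 52 bp.

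**Figure D4:**
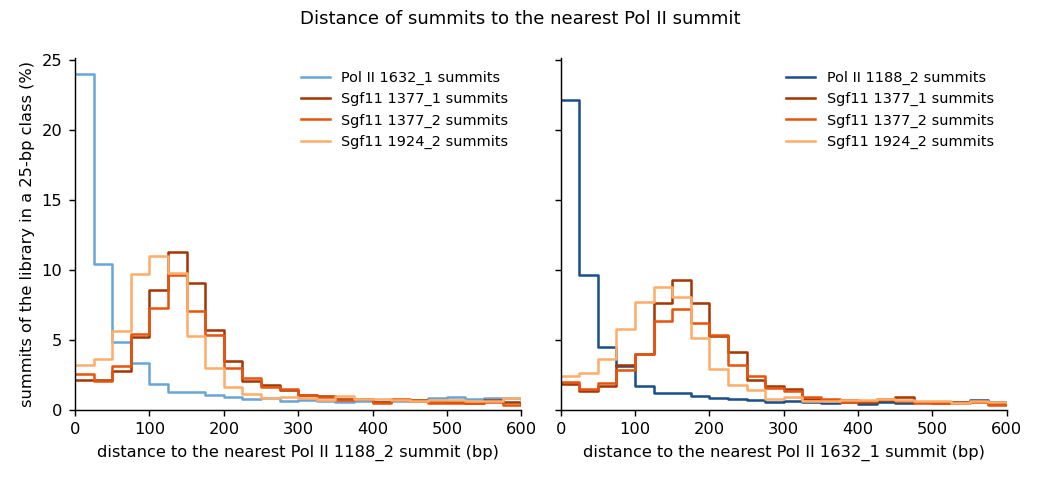
Distance (bp) of summits to the nearest summit of Pol II 1188_2 (left) and Pol II 1632_1 (right), as the share (%) of all summits of a library in classes of 25 bp. Blue lines are summits of the other Pol II library and red to orange lines those of the 3 Sgf11 libraries. Pol II summits pile up at 0 to 25 bp, while the fullest Sgf11 class lies between 100 and 175 bp in every pair.

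The offset was clearest for strong Sgf11 peaks. When the peaks of each Sgf11 library were put into 5 score classes, 7.44 to 14.9% of summits in the lowest class lay within 50 bp of a Pol II summit, over the 6 library pairs. In the highest class this was 0.704 to 2.21%. The share within 500 bp of a Pol II summit moved the other way, with 37.7 to 52.9% in the lowest class and 62.1 to 70.6% in the highest. Among summits within 500 bp the median distance was 101 to 150 bp in the lowest and 135 to 190 bp in the highest score class. Strong Sgf11 peaks were thus near a Pol II summit more often and on top of it less often. The same held by width of the Sgf11 peak, with 5.52 to 10.7% within 50 bp in the narrowest class and 1.61 to 3.58% in the widest.

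The offset also had a direction. In long Pol II peaks the summit usually lies closer to one end, here called the near edge. For Pol II peaks of at least 1 kb and Sgf11 summits within 500 bp of the Pol II summit, a measure chosen after the data had been seen, 72.6 to 75.2% of Sgf11 summits lay on the side of the near edge, a mean of 73.5 ± 0.83% (SD, n = 3). In counts, 1551 of 2096, 1780 of 2435 and 1715 of 2327 summits of 1377_1, 1377_2 and 1924_2 lay on that side with Pol II 1188_2. With Pol II 1632_1 these counts were 732 of 1007, 844 of 1163 and 865 of 1150. The median displacement, negative toward the near edge, was -99 to -148 bp over the 6 pairs. The summits of the other Pol II library showed almost no displacement, with medians of 12 bp for 1632_1 summits in 1188_2 peaks and -11 bp for the reverse, although 34.4 and 63.8% of them lay on the side of the near edge. The orientation of genes at these peaks was not analysed here, so upstream and downstream of a promoter are not assigned.

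Inside Pol II peaks, most Sgf11 summits lay toward the ends. Of all Sgf11 summits, 62.1 ± 4.45% (SD, n = 3) fell inside a Pol II peak, and 66.9 ± 1.38% of these lay in the first or last 25% of the length of the peak, where an even spread would put 50%. The range over the 6 pairs was 62.8 to 72.2%. Summits of the other subunits also lay there in more than 50% of cases on average. Their shares were 59.9 ± 3.76% for Ada2b, 60.3 ± 5.11% for Spt3 and 54.4 ± 1.51% for Non-stop (SD, n = 4, 3 and 2). The own summits of the Pol II peaks lay there in 30.3% of peaks in 1188_2 and 26.7% in 1632_1. In peaks of at least 1 kb the shares came closer, at 57.5 and 57.9% for the own summits of 1188_2 and 1632_1, against 66.0 ± 1.75% for Sgf11 summits (SD, n = 3). Summits of the other Pol II library lay at the ends of such peaks in 56.1% of cases in 1188_2 peaks, below Sgf11 at 62.6 to 64.2%. In 1632_1 peaks they did so in 70.4% of cases, within the Sgf11 range of 65.5 to 70.7%. Sgf11 summits stood a median of 296 to 316 bp from the nearest edge of a 1188_2 peak and 133 to 162 bp from that of a 1632_1 peak. In the widest of 5 classes of Pol II peaks, the median distance of inside Sgf11 summits was 215 to 291 bp to the Pol II summit and 379 to 868 bp to the edge. Inside the widest peaks, Sgf11 summits were thus closer to the Pol II summit than to the edge at the median.

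Sgf11 summits were densest in Pol II peaks of middle width. Over the 6 pairs, the density of Sgf11 summits per kb of Pol II peak was 0.0755 to 0.185 in the narrowest class. It was 0.289 to 0.574 in the middle class, 0.299 to 0.417 in the fourth and 0.177 to 0.243 in the widest. With Pol II 1188_2 and Sgf11 1377_1 the fourth class was the densest, at 0.299 against 0.289 in the middle class. More than 1 Sgf11 summit was found in 11.4 to 30.1% of the widest Pol II peaks and in at most 2.88% of those of the fourth class. Sgf11 summits outside Pol II peaks were often far away. Their median distance to the nearest edge was 4244 to 4412 bp with Pol II 1188_2 and 1408 to 2304 bp with Pol II 1632_1, and 46.4 to 47.5% of those outside 1188_2 peaks were more than 5 kb from an edge. Only 13.0 to 15.2% of the summits outside 1188_2 peaks were within 200 bp of an edge, which compares with 24.8 to 34.3% for 1632_1, the library with less covered sequence.

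Peaks seen in replicate were joined into regions. Both libraries were needed for Pol II and 2 or more for Sgf11, which gave 5755 Pol II regions and 5493 Sgf11 regions. Of these, 3107 Pol II regions overlapped an Sgf11 region and 3788 Sgf11 regions overlapped a Pol II region. Joined together they made 7247 sites, of which 2894 had both factors, 2648 Pol II only and 1705 Sgf11 only. A stricter definition left 635 sites with all 3 Sgf11 libraries and no Pol II peak of either library, and 2275 sites with both Pol II libraries and no Sgf11 peak of any library. Numbers of sites with a single factor moved with the libraries used. When either Pol II library was left out and the other alone defined Pol II regions, sites with Pol II only numbered 6701 without 1188_2 and 7529 without 1632_1. Sites with Sgf11 only numbered 1070 without Pol II 1632_1 and 1128 without Sgf11 1377_2, both more than 1.5 times fewer.

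Pol II regions without Sgf11 had the other SAGA subunits less often than those with Sgf11. Regions of the other factors needed 3 of 4 Ada2b libraries, 2 of 3 Spt3 libraries or both Non-stop libraries. Ada2b was present at 32.6% of Pol II regions with Sgf11 (95% Wilson interval 31.0 to 34.3%) and at 0.944% of those without (0.640 to 1.39%). Spt3 was present at 49.1% with Sgf11 and 3.85% without, and Non-stop at 88.9% with and 21.0% without. None of the 3 was found at 9.98% of Pol II regions with Sgf11 and at 78.0% of those without. Regions with Sgf11 were wider, with a median of 2410 bp against 851 bp without. Taken by single library, Ada2b was at 25.9 to 79.3% of Pol II regions with Sgf11 and at 1.51 to 10.6% of those without. Single Spt3 libraries gave 39.2 to 91.9% with Sgf11 and 1.55 to 15.8% without, and single Non-stop libraries 88.7 to 99.0% with and 23.7 to 40.6% without. Within each of 5 width classes the order was the same for all 3 subunits. Pol II score was not held in these classes. Ranked within width classes, Pol II peaks with Sgf11 stood 31.6 score percentile points higher in 1188_2 and 41.3 points higher in 1632_1. Whether Pol II score accounts for the subunit shares was not tested. In the narrowest class, around 473 bp, Non-stop was at 70.2% of 245 Pol II regions with Sgf11 and at 11.5% of 906 without, and in the widest, around 6255 bp, at 97.5% of 985 and 49.4% of 166. Regions share libraries and are not replicates, so these shares carry counting error only and no test was made. Sgf11 1924_2 and Non-stop 1924_2 carry the same library number.

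Sgf11 regions without Pol II kept part of the other subunits. Ada2b was at 28.7% of Sgf11 regions with Pol II and at 23.5% of those without. Spt3 was at 45.0% with Pol II and 22.9% without, and Non-stop at 86.4% with and 59.7% without. None of the 3 was at 12.2% of Sgf11 regions with Pol II and 36.2% of those without. The classes of Sgf11 region thus differed by 5.21 percentage points for Ada2b, 22.1 points for Spt3 and 26.6 points for Non-stop. These sizes are not ranked, since the replicate rules were unlike. Taken by single library, Ada2b was at 22.5 to 78.9% of Sgf11 regions with Pol II and at 20.4 to 63.7% of those without. Single Spt3 libraries gave 34.9 to 91.2% with Pol II and 16.0 to 59.0% without, and single Non-stop libraries 86.0 to 99.0% with and 61.9 to 85.4% without. The Sgf11 regions were 628.5 bp wide at the median with Pol II and 480 bp without.

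**Figure D5:**
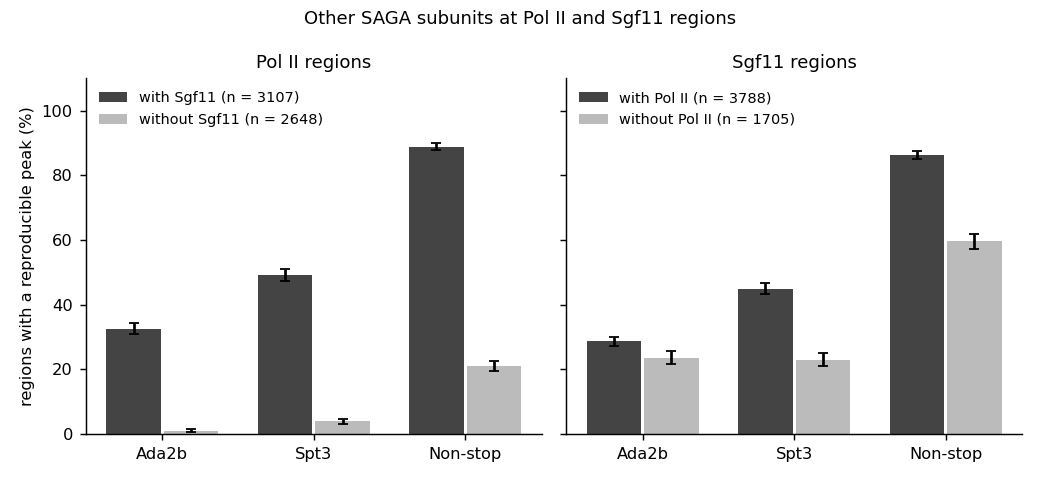
Share of regions (%) with a reproducible peak of Ada2b, Spt3 or Non-stop, at Pol II regions with and without Sgf11 (left) and at Sgf11 regions with and without Pol II (right). Bars start at 0 and carry 95% Wilson intervals, which cover counting error only. At Pol II regions the dark bars reach 32.6, 49.1 and 88.9% and the light bars 0.944, 3.85 and 21.0%, while at Sgf11 regions the light bars reach 23.5, 22.9 and 59.7%.

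Single sites show the range of these patterns. They were chosen by rank in their class on the arms 2L, 3L, 3R, X and chromosome 4, coordinates are those of dm3, and the values are those of the strongest peak of a library at the site. The genes at these sites were not analysed here. The strongest Sgf11 peaks with Pol II lay on X. At X 3028366 to 3037853, fold enrichment was 12.9 and 8.67 in Pol II 1188_2 and 1632_1 and 17.7, 21.8 and 23.0 in Sgf11 1377_1, 1377_2 and 1924_2. Sgf11 summits stood 203 to 240 bp from the Pol II summits there, which were 606 and 612 bp from the end of the site, against 372 to 403 bp for Sgf11. At X 5631238 to 5632698 the fold enrichment was 12.7 and 6.12 for Pol II and 16.9, 21.8 and 27.9 for Sgf11, with summits 144 to 181 bp apart. Its Pol II summits were 705 and 696 bp from 1 end, and its Sgf11 summits 583 to 611 bp from the other end. At X 17639862 to 17646296 the fold enrichment was 7.18 and 4.80 for Pol II and 17.4, 21.7 and 26.6 for Sgf11, with summits 63 to 133 bp apart. Its Pol II summits were 497 and 465 bp from the nearer end, against 364 to 402 bp for Sgf11. The last site had Pol II score percentiles of 73.7 and 85.1, although it was near the top of every Sgf11 library.

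The strongest Pol II peaks with Sgf11 did not always have strong Sgf11. At 3R 17959322 to 17961012, Pol II enrichment was 12.5 and 9.73, and Sgf11 enrichment 2.29, 3.88 and 5.58, at a mean Sgf11 percentile of 34.7. At X 20564986 to 20569502, Pol II enrichment was 12.9 and 8.95, and Sgf11 enrichment 2.87, 3.55 and 2.30, at a mean Sgf11 percentile of 20.2. Summits were close at the first of these, 6 to 85 bp apart. By contrast, X 12550412 to 12555291 was high for both, with Pol II enrichment of 12.9 and 9.11 and Sgf11 enrichment of 16.7, 21.4 and 19.8. Its summits stood 435 to 477 bp apart. Here Sgf11 summits were farther from the nearer end, at 2208 to 2246 bp, against 1773 and 1769 bp for Pol II. At X 20564986 these distances were 275 to 604 bp for Sgf11 and 525 and 550 bp for Pol II. At 3R 17959322 they were 243 to 358 bp for Sgf11 and 303 and 328 bp for Pol II. All 4 Ada2b, 3 Spt3 and 2 Non-stop libraries had a peak at each of these 6 sites.

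Strong Sgf11 was also found without any Pol II peak. At X 1846799 to 1847572, Sgf11 enrichment was 17.5, 21.5 and 25.8 in 1377_1, 1377_2 and 1924_2, at a mean percentile of 99.9, and no Pol II peak was called in either library. At 3L 14104332 to 14105115 it was 14.8, 16.6 and 26.6, and at 3R 2534374 to 2535830 it was 15.0, 18.8 and 24.8. Every Ada2b, Spt3 and Non-stop library had a peak at all 3 of these sites. The strongest Pol II sites with no Sgf11 peak reached similar Pol II enrichment to the sites with both. These were X 11900734 to 11902308 with 12.4 and 8.16 in 1188_2 and 1632_1, 3L 15714007 to 15721713 with 11.2 and 7.93, and 2L 5805165 to 5805798 with 11.2 and 8.01. Peaks of both Non-stop libraries were present at each of them, as were peaks of 1 or 2 of the Ada2b libraries and 1 or 2 of the Spt3 libraries. A site without a peak may hold binding below the limit of the caller.

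In the widest Pol II regions, the strongest Sgf11 peak of each library lay near an end. Other Sgf11 peaks in these regions were not placed. In 1377_1, 1377_2 and 1924_2, 3R 6388511 to 6440437 held 2, 5 and 2 Sgf11 peaks. In the same order, 2L 208275 to 251522 held 3, 5 and 4. The widest, 3R 6388511 to 6440437, spanned 51927 bp, and the strongest Sgf11 summits stood 430 to 529 bp from its end and 13 to 86 bp from the Pol II summits. The third, 2L 1378519 to 1420781, spanned 42263 bp, with Sgf11 summits 270 to 319 bp from its end and 80 to 160 bp from the Pol II summits. The second, 2L 208275 to 251522, spanned 43248 bp and differed, since the Pol II summits stood 13622 and 13620 bp from the nearer end and the strongest Sgf11 summits 590 to 610 bp from an end, 29015 to 29037 bp away from Pol II. Leaving out arm 2R, the site with most peaks of an Sgf11 library at 1 Pol II peak was 3L 19880636 to 19906932. This single peak of 26297 bp in 1188_2 overlapped 9 peaks of Sgf11 1377_2, 8 of 1924_2 and 5 of 1377_1.

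Shares lay close together on the large chromosome arms. Sgf11 regions overlapped Pol II in 69.8 to 73.0% of cases on 2L, 2R, 3L and 3R and in 66.5% on X. On chromosome 4 it was 55.9% of 93 regions (95% Wilson interval 45.8 to 65.6%), and on other sequence, such as heterochromatin and unplaced scaffolds, 27.8% of 205 regions (22.1 to 34.3%). Pol II regions overlapped Sgf11 in 52.4 to 56.5% of cases on the 5 large arms, in 64.2% of 67 regions on chromosome 4 (52.2 to 74.6%) and in 60.2% of 108 regions elsewhere (50.8 to 68.9%). Intervals of Sgf11 regions on chromosome 4 and elsewhere lay below the shares of the large arms, those of Pol II regions reached them, and no difference between arms was tested.

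Sgf11 was finally set beside the other SAGA subunits, to see where its relation to Pol II differed. Sgf11 came from sets 1377 and 1924, and Ada2b and Spt3 from sets 1530 and 1760. All other subunits, Non-stop of set 1924 included, were precipitated with more antibody than Sgf11. Factor, antibody amount and, for Ada2b and Spt3, set cannot be told apart. The share of Sgf11 peaks that overlapped Pol II, 74.2, 69.8 and 73.9% in 1377_1, 1377_2 and 1924_2, lay within the range of the other factors. The mean was 72.6 ± 2.45% for Sgf11 and 72.9 ± 2.67% for Ada2b (SD, n = 3 and 4), a difference of -0.23 percentage points (exact permutation p = 0.886, adjusted 0.886). Against 80.4 ± 5.59% for Spt3 the difference was -7.76 points (exact permutation p = 0.1, adjusted 0.155), and against 76.1 ± 4.43% for Non-stop it was -3.42 points (exact permutation p = 0.5, adjusted 0.531). The difference from Spt3 was -4.58 points without Spt3 1530_2, -3.42 with 200 bp around summits and -2.50 among the upper 50% of peaks by score. That from Non-stop was -0.29 without Non-stop 1924_1, -6.55 without 1924_2 and -2.01 without Sgf11 1377_2. The differences from Ada2b and from Non-stop changed sign with the way overlap was counted. Sgf11 overlapped 34.2 ± 3.94% of Pol II peaks (SD, n = 3), against 16.8 ± 9.85% for Ada2b, a difference of 17.5 points (exact permutation p = 0.0571, adjusted 0.155). With lists cut to an equal 1563 peaks this difference was 2.20 points, and that from Spt3, 13.2 points with all peaks (exact permutation p = 0.3, adjusted 0.392), changed to -6.74. Without Spt3 1760_2 it was 21.0. For Non-stop, with 46.0 ± 8.84%, the difference was -11.8 points (exact permutation p = 0.1, adjusted 0.155), and -3.10 with equal lists. It was -5.53 without Non-stop 1924_2 and -18.0 without 1924_1.

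Displacement from Pol II summits was also measured for the other SAGA subunits. The median displacement, negative toward the near edge, averaged -129 ± 15.3 bp for Sgf11, against -89.4 ± 22.9 bp for Ada2b, -82.5 ± 56.9 bp for Spt3 and -75.3 ± 19.4 bp for Non-stop (SD over 3, 4, 3 and 2 libraries). Spt3 1530_2 stood apart, with -22.5 and -13 bp against Pol II 1188_2 and 1632_1, near the 12 and -11 bp between the Pol II libraries. Summits within 50 bp of a Pol II summit made up 4.73 ± 1.24% for Sgf11, against 8.64 ± 0.72% for Ada2b, 11.8 ± 5.99% for Spt3 and 9.04 ± 2.18% for Non-stop (SD, n = 3, 4, 3 and 2). The differences were -3.91, -7.08 and -4.32 points, with exact permutation p-values of 0.0286, 0.1 and 0.1, each the smallest its design allows and each 0.155 after adjustment. The difference from Spt3 was -3.63 points without Spt3 1530_2. That from Non-stop was -2.77 without Non-stop 1924_1 and -8.06 among the upper 50% of peaks by score. Every Sgf11 library, with 3.88, 4.15 and 6.15%, lay below every library of the other subunits, whose lowest was 7.50%. For Ada2b and Spt3 this cannot be told apart from a difference between library sets. Within set 1924, which held both factors, Sgf11 1924_2 had 6.15%, against 7.50 and 10.6% for Non-stop. The share of summits toward the near edge was 73.5 ± 0.83% for Sgf11, against 65.5 ± 4.77% for Ada2b, 66.8 ± 8.84% for Spt3 and 67.3 ± 2.17% for Non-stop. The differences from Spt3 and Non-stop were 6.76 and 6.28 points, and that from Ada2b was about 8 points. They had exact permutation p-values of 0.1, 0.1 and 0.0857, all 0.155 after adjustment. Without the Spt3 library 1530_2, at 56.6% the lowest of all, the difference from Spt3 was 1.67 points, and without Pol II 1632_1 that from Non-stop was 4.03. Among the upper 50% of peaks by score the differences from Ada2b and Non-stop were 4.85 and 3.90 points. Within set 1924 the share was 74.5% for Sgf11, against 65.7 and 68.8% for Non-stop 1924_1 and 1924_2. Of the 17 tests, 1 had an unadjusted exact permutation p under 0.05 and 0 an adjusted p under 0.05.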

How the data were processed

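ChIP-seq peak lists were used as the authors deposited them, 1 per library. Per the labels, 50-bp single reads were called with CASAVA 1.8.2. The authors aligned reads to dm3 with Bowtie (-k 1, -m 3), and MACS2 called the peaks with its default options. These steps are described for Ada2b, Spt3 and Sgf11, and were taken to apply to Pol II and Non-stop. Versions of Bowtie and MACS2 and the control are not given in the sources used here. The deposited score, a whole number, is 10 times the −log10 q-value for at least 99.98% of the peaks of every list. MACS2 also gave the deposited −log10 of the p-value and of the q-value, and the second was used to rank peaks. The deposited fold enrichment is a ratio of signal to background. Peaks under a −log10 q of about 2.01 are absent.

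Overlaps, distances and ranks were computed in Python 3.11.15 (NumPy 2.4.6, pandas 2.3.3, SciPy 1.17.1, matplotlib 3.10.9). Overlap counts equalled those of bedtools 2.31.1 in 26 of 26 library pairs, and 9 of 9 planted quantities were recovered from simulated lists. Factors were compared by two-sided exact permutation of libraries, and score percentiles by exact sign-flip permutation, with Benjamini-Hochberg adjustment over 17 tests. Wilson intervals are at 95% and cover counting error only. Comparisons and site classes were chosen with earlier results of these data known, and the near-edge side and the share within 50 bp after the data had been seen. Named sites were the top 3 by mean score percentile in 4 site classes, the 3 widest Pol II regions and the Pol II peak with most Sgf11 peaks, leaving out arm 2R. Alternatives were overlap rules, the upper 50% by score, equal list sizes, main arms, peak centres, 1 Pol II library alone and leaving out each library. Genes, sequences and total chromatin were not analysed here.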

Additional observations from a re-analysis of the deposited data

How the results depend on the processing

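Of 262 alternative values for 25 results, 214 were scored as unchanged. Tests had to keep their direction and side of the 0.05 threshold. Values without a test had to move by less than the spread between libraries, and counts by at most 1.5 times. Outside the tests against Ada2b, no test could give a p below 0.1, so only its direction could change. The same held for tests against Ada2b with an Sgf11 or Ada2b library left out. Using 1 Pol II library alone repeats leaving out the other, and both were counted. The share of Pol II peaks with Sgf11 was 28.5% when 50% of the smaller peak had to overlap, 27.1% when the Pol II summit had to lie in an Sgf11 peak, 22.3% with 200 bp around summits, 37.9% with the upper 50% of peaks by score and 59.0% with 4972 peaks in each list. The share of Sgf11 peaks with Pol II was 64.8, 62.1 and 42.2% by the same 3 overlap rules and 66.2% with equal lists. Leaving out each library gave 32.0 to 35.6% for Pol II peaks and 65.7 to 79.6% for Sgf11 peaks.

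The difference of Sgf11 from Ada2b in the share of peaks with Pol II became 3.40 points with 200 bp around summits, 12.6 with the upper 50% and 0.17 on the main arms. It was 2.35 without Pol II 1632_1, that is, with Pol II 1188_2 alone. It was 1.18 without Sgf11 1377_2, 0.55 without Ada2b 1530_1 and 0.42 without Ada2b 1760_2. As libraries were left out it ranged from -2.81 to 2.35. The difference from Non-stop became 5.38 with 200 bp and 0.73 with the upper 50%, and in the share of Pol II peaks overlapped the difference from Spt3 became -6.74 with equal lists. The score percentile difference of Sgf11 peaks became -11.6 within width classes.

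Between peak centres the median distance from Sgf11 to Pol II was 826 bp, and 64.2% of inside Sgf11 centres lay in the outer 25% at either end. With the upper 50% of peaks by score that outer share was 73.2%, and it ran from 63.4 to 70.5% as libraries were left out. The upper 50% gave 1662 sites with both factors and 941 with Sgf11 only. Any library sufficing gave 7077 sites with Pol II only, and all libraries needed gave 1100 with Sgf11 only. As libraries were left out, sites with both ran from 2431 to 3539, Pol II only from 2870 to 7529 and Sgf11 only from 1070 to 1791. Of the measures chosen after the data had been seen, the near-edge share was 75.8% within 250 bp and 77.5% with the upper 50%. The difference from Ada2b within 50 bp was -2.35 points with the upper 50% (exact permutation p = 0.0571). It was -4.79 without Pol II 1188_2 and -3.03 without Pol II 1632_1, each with an exact permutation p of 0.0286. It lay between these values when an Sgf11 or Ada2b library was left out, where such smaller designs cannot reach 0.05. No paired analysis was possible because Pol II and Sgf11 libraries share no library number, and Sgf11 shares only 1924_2 with Non-stop. Read depth is unknown, and binding too weak to be called is treated as none.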
